A study of Homo sapiens with 60 samples.

Results

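A pair of hot-water root extracts was set directly against each other in SW1783 cells, an established human astrocytoma line: Paeoniae Radix (peony root) and Angelicae Gigantis Radix (the root of Korean angelica), each at the high dose of 500 µg/mL for 24 h. The comparison rests on 4 of the 60 RNA sequencing libraries of the series, 2 after peony (peony high, replicates 1 and 2) and 2 after angelica (angelica high, replicates 1 and 2), chosen by their labels alone. All 4 carry codes of the same set, number 4 in the labels, so no difference of code set lies between them. Genes were described where their mean over the 4 libraries was at least 5 CPM (counts scaled to the library total, with the total adjusted by the trimmed mean of M-values, TMM), which held for 11242 of the 17919 genes tested. The medium (100 µg/mL) and low (20 µg/mL) doses of both extracts, with 2 libraries each in that code set, gave the dose course, and 3 libraries of cells given DMSO as vehicle gave a reference level. All groups shared the cell line, the L-15 medium with serum and the 24 h of exposure. The vehicle has a code set of its own, so code set and treatment cannot be told apart against it and its levels are given without a test. The labels give 0.1% DMSO for the vehicle and the series text gives 2%, and the solvent content of the extract wells was not found in the labels. Doses are those of the labels; the series text says that extracts with an IC20 under 500 µg/mL were used at lower doses, and names none. Replicate 3 of the peony and angelica groups was not analysed here. The labels do not say whether replicates came from separate cultures, so p-values measure the spread between libraries, which may be technical.

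Peony root is known for the monoterpene glycoside paeoniflorin and for gallotannins, and Korean angelica root for pyranocoumarins such as decursin; the content of the extracts was not measured in these data. Several of the gene groups below are the readout of well-studied sensors. Hypoxia-inducible factors (HIF) are transcription factors that are hydroxylated by oxygen- and iron-dependent enzymes and then degraded. When stable they raise glycolytic enzymes and genes of mitophagy and acid handling. The aryl hydrocarbon receptor (AhR) binds planar ligands, many of plant origin, and raises xenobiotic-metabolising enzymes. Bone morphogenetic protein (BMP) receptors signal through SMAD1 and SMAD5 to the ID genes, which encode inhibitors of basic helix-loop-helix factors and are active in glial tumour cells.

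Library totals were 19.45 and 28.27 M counts for peony high replicates 1 and 2, and 26.02 and 24.93 M for angelica high. Replicate 1 of peony high was the shallowest of the 60 libraries and lay further from its partner than most: the SD over genes of the log2 CPM difference between replicates was 0.158 in peony high and 0.113 in angelica high. It was 0.194 in angelica low and 0.103 to 0.120 in the other groups used. In peony high replicate 1 only 1 of 47 cell type marker genes had no count, against 9, 11 and 13 in the other libraries. Of the astroglial markers, VIM ranged from 4360 to 5560 CPM, and GFAP, the intermediate filament of mature astrocytes, was at 0.0378 to 0.104 CPM in 3 libraries and highest in peony high replicate 1. Likewise AQP4, ALDH1L1, S100B, SOX2 and FABP7 were at 1.3 CPM or less in every library. Other genes of the same list were well detected: GJA1 at 220 to 243, SOX9 at 58.8 to 71.5, GLUL at 50.2 CPM or more and SLC1A3 at 24.3 to 25.7 CPM. The astroglial list was thus detected in part, with GFAP itself near 0. The summed level of the 15 astroglial markers was 7132 to 7898 CPM after peony and 8450 to 8682 CPM after angelica. Most of that sum was VIM (4360 and 5030 against 5560 and 5340 CPM) and CD44 (2390 and 2480 against 2720 and 2710 CPM). GJA1, SOX9 and ALDOC also lay lower in both peony libraries, SLC1A3 overlapped, and NES and GLUL lay higher. The sum therefore does not stand for the list as a whole. For the 16 other neural markers the sum was 372.1 to 374.3 against 385.5 to 389.7 CPM. For the 16 epithelial, blood and endothelial markers it was 381.3 to 410.5 against 391.9 to 403.5 CPM. The part of these sums in the results was not tested. In bulk RNA, fewer cells of a type and less RNA per cell cannot be told apart.

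After peony at the high dose, cells held more mRNA of NPTX1, THBD and SERPINB2, of the AhR targets and of the ferritin light chain than after angelica. They held less of the ID genes, of HIF targets and of almost the whole glycolytic pathway. With edgeR's quasi-likelihood test and Benjamini-Hochberg adjustment over the 17919 genes tested, which stands behind every adjusted p below, 555 of the 11242 genes differed at an adjusted p under 0.05. That is 4.94% of them, 198 higher after peony (1.76%) and 357 lower (3.18%). Changes were mostly modest: the median size among the 555 was 0.30 on the log2 scale, and 11 genes were at least 2-fold higher and 12 at least 2-fold lower. The 2 groups of libraries did not overlap for 551 of the 555, where 48.1% of all 11242 genes had groups that did not overlap. Over all 11242 genes the median log2 fold change was -0.02, with a median standard error (SE) of 0.079. At the CPM threshold itself, ARID3A, STMN3 and AL365205.1 lay just inside at 5.00 to 5.01 CPM and NUDT14, RAP2C-AS1 and TCN2 just outside at 4.99 CPM; none of these 6 was called.

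The number of calls depended on each library. It was 264 without peony high replicate 1 (126 higher, 138 lower), of which 251 were among the 555, and 941 without peony high replicate 2 (170 higher, 771 lower). It was 267 without angelica high replicate 1 and 260 without angelica high replicate 2; the lone library of a group is then assumed to vary like those of the other groups. The 4 calls whose groups overlapped rested on peony high replicate 1. The largest of them was HELLPAR, a long non-coding RNA chosen here after its values were seen, at 32.4 CPM in that library and 2.29 in its partner, against 3.06 and 2.72 CPM after angelica. FP236383.1, a transcript named only by its clone, stood at 18.2 and 2.53 CPM after peony and at 2.35 and 2.72 CPM after angelica.

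**Figure D1:**
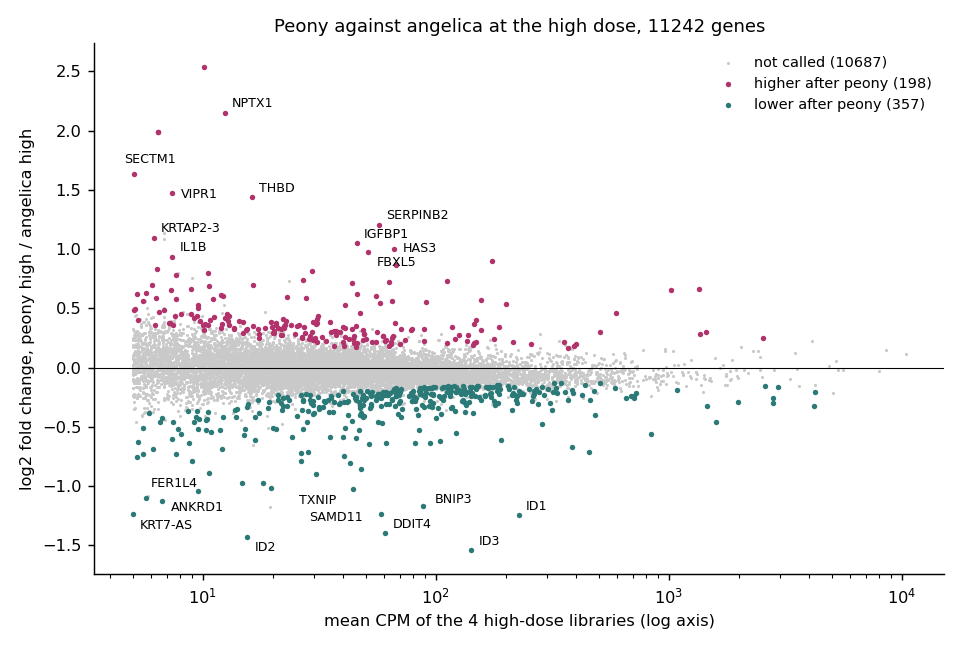
Mean CPM of the 4 high-dose libraries (log axis) against the log2 fold change of peony over angelica, one point per gene of mean CPM 5 or more. Coloured points are the 198 genes higher and the 357 lower after peony at an adjusted p under 0.05; the 20 labelled genes have the largest changes under the naming rule, and the 2 unlabelled points beside NPTX1 (log2 fold changes of 2.54 and 1.98) rest on replicate 1 alone.

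NPTX1 had the largest rise under the naming rule, which asks for groups that do not overlap. It encodes neuronal pentraxin 1, a secreted protein that gathers glutamate receptors at synapses, and lies on chromosome 17, 80467148 to 80477843, minus strand (GRCh38, GENCODE 29). Its level was 21.0 and 19.5 CPM in the peony libraries and 4.615 and 4.496 CPM in the angelica libraries. Both peony libraries stood far above both angelica libraries, and the latter lay within the 3.86 to 4.95 CPM of the vehicle libraries. The log2 fold change was 2.15 ± 0.12 (SE, 2 against 2 libraries; adjusted p = 1.99e-19). At the medium dose NPTX1 was at 6.72 and 7.62 CPM after peony and at 4.09 and 4.42 CPM after angelica, a log2 fold change of 0.75 (adjusted p = 0.000943). That medium-dose call was lost without peony medium replicate 2 (adjusted p = 0.179) or without angelica medium replicate 1 (0.0812), over a range of 0.000231 to 0.179 across alternatives.

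THBD encodes thrombomodulin, the surface receptor that turns thrombin from a clotting enzyme into an activator of protein C (chromosome 20, 23045633 to 23049741, minus strand). It measured 23.6 and 23.9 CPM after peony against 8.93 and 8.60 CPM after angelica, with 7.82 to 8.71 CPM in vehicle. Angelica lay close to vehicle and both peony libraries well above both, with a log2 fold change of 1.44 ± 0.11 (adjusted p = 9.56e-15). SERPINB2, the plasminogen activator inhibitor PAI-2 (chromosome 18, 63871692 to 63903890, plus strand), measured 80.9 and 77.9 CPM after peony and 36.8 and 32.0 CPM after angelica. The groups did not overlap, and the log2 fold change was 1.20 ± 0.11 (adjusted p = 5.64e-11). HAS3, a synthase of the matrix polysaccharide hyaluronan, measured 83.4 and 93.0 CPM against 42.0 and 46.2 CPM, a log2 fold change of 1.00 ± 0.087 (adjusted p = 1.57e-12). It was higher at the medium dose as well, by 0.52 (adjusted p = 0.000469).

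Among the other genes with the largest rises were receptors and secreted factors. SECTM1, a small membrane protein that is shed and binds CD7 on lymphocytes, was at 6.71 and 8.57 CPM after peony and at 2.76 and 2.17 CPM after angelica (log2 fold change 1.64 ± 0.19). VIPR1, a receptor of vasoactive intestinal peptide, was at 11.1 and 10.6 CPM against 4.31 and 3.47 CPM (1.48 ± 0.16). IGFBP1, a binding protein of insulin-like growth factors, was at 63.2 and 60.1 CPM against 30.53 and 29.03 CPM (1.05 ± 0.094). For these 3 genes neither group overlapped the other, and the adjusted p-values were 1.15e-08, 1.62e-09 and 4.6e-12. IGFBP1 differed from the others in that it also rose from the low to the high dose of angelica, by 0.75 on the log2 scale (adjusted p = 5.86e-06), beside 1.51 for peony (adjusted p = 4.93e-17). The keratin-associated protein gene KRTAP2-3 had a log2 fold change of 1.10 ± 0.21 (adjusted p = 0.000594), from 7.67 and 9.09 CPM against 4.01 and 3.86 CPM; near-identical copies of this gene exist, so its count is uncertain, and its vehicle libraries, at 5.89 to 6.85 CPM, lay between the groups.

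On the lower side, SAMD11, a nuclear protein with a sterile alpha motif (chromosome 1, 923928 to 944581, plus strand), measured 35.75 and 33.81 CPM after peony and 83.41 and 79.55 CPM after angelica. The groups were far apart (log2 fold change -1.23 ± 0.077, adjusted p = 1.03e-17). It was lower at the medium dose too, (log2 fold change -0.72, adjusted p = 4.26e-09), and that call held in every alternative fit (adjusted p at most 3.79e-05). ANKRD1, a cardiac ankyrin repeat protein and a common YAP target, was at 3.62 and 4.68 CPM against 7.57 and 10.8 CPM (-1.12 ± 0.20, adjusted p = 0.000116). The vehicle libraries had more ANKRD1 than either extract, 12.2 to 13.6 CPM. FER1L4, a pseudogene transcript of the ferlin family, was at 3.96 and 3.33 CPM against 7.49 and 8.01 CPM (-1.10 ± 0.17, adjusted p = 9.1e-06), and here it was the angelica libraries that lay above the vehicle's 3.77 to 4.96 CPM. KRT7-AS, an antisense RNA of the keratin gene KRT7, was at 2.99 and 2.98 CPM against 7.19 and 6.90 CPM (-1.24 ± 0.21, adjusted p = 0.000102). KRT7 itself, chosen after its values were seen, was also lower (log2 fold change -0.71); no source names whether RSEM used strand, so reads of the pair cannot be told apart.

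**Figure D2:**
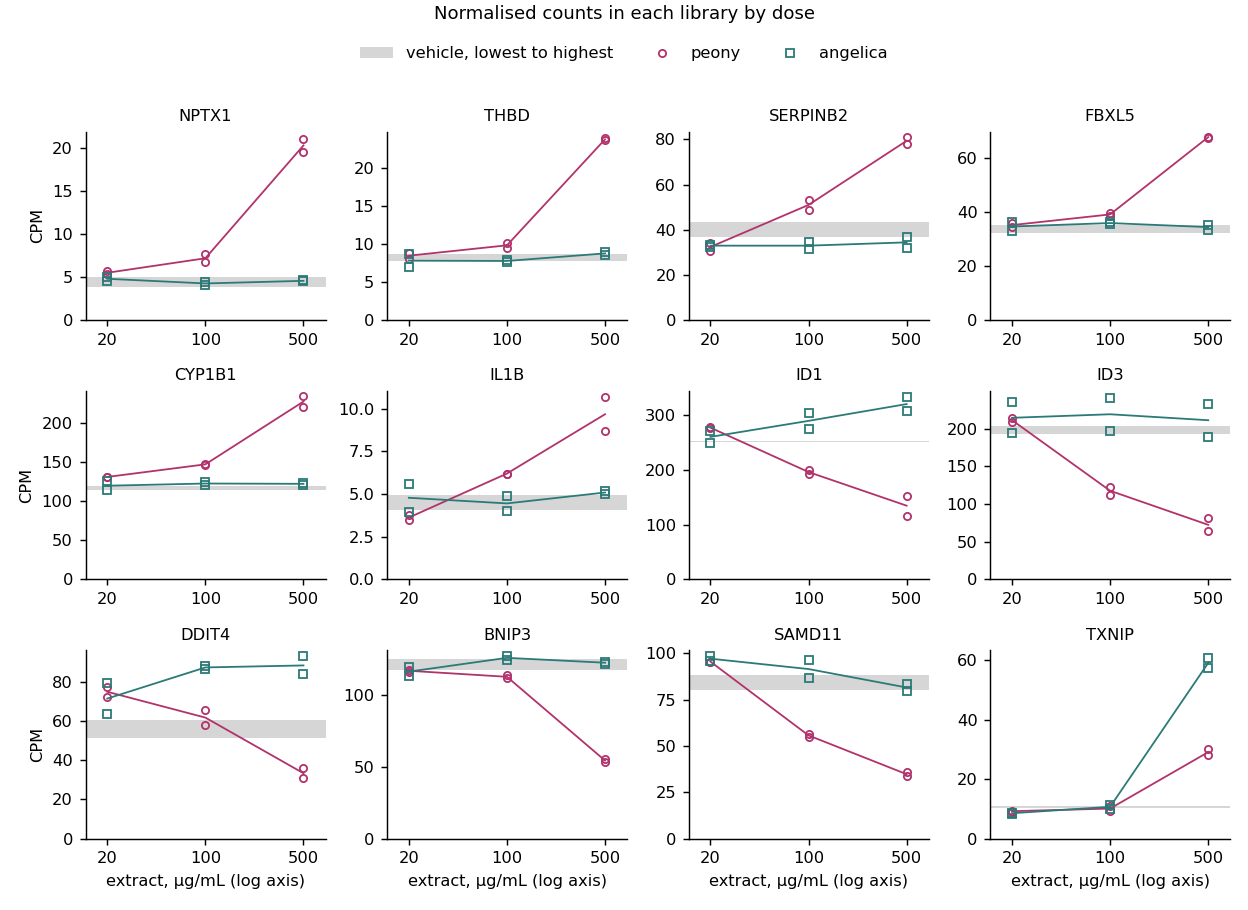
CPM of each peony library (circles) and angelica library (squares) at 20, 100 and 500 µg/mL (log axis) for 12 genes, with lines through the group means and a grey band from the lowest to the highest vehicle library. At 500 µg/mL the peony and angelica libraries of these 12 genes do not overlap, and at 20 µg/mL no gene was called.

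Hypoxia-inducible genes were mostly lower after peony. Of the 19 genes listed, all were tested and 17 reached 5 CPM; 14 of the 17 were lower after peony, 1 was higher and 2 were not called. Their median log2 fold change was -0.58, against -0.02 for all 11242 genes, of which 3.18% were lower. Without peony high replicate 1 the count was 11 lower and 1 higher, and over all libraries left out in turn it ran from 10 to 12 lower.

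BNIP3, a mitochondrial outer membrane protein that marks mitochondria for mitophagy (chromosome 10, 131966455 to 131982013, minus strand), measured 53.60 and 55.35 CPM after peony and 121.8 and 123.4 CPM after angelica. Both angelica libraries lay in the range of vehicle, 117.8 to 125.1 CPM, and both peony libraries at levels below all of these. The log2 fold change was -1.17 ± 0.067 (adjusted p = 2.29e-19). Its homologue BNIP3L, with the same role in mitophagy, measured 80.9 and 84.0 CPM against 128.2 and 125.7 CPM, again without overlap (-0.62 ± 0.045, adjusted p = 2.41e-15). DDIT4 (REDD1), which restrains mTORC1 under hypoxia and energy stress (chromosome 10, 72273920 to 72276036, plus strand), measured 30.7 and 36.0 CPM against 83.7 and 92.8 CPM. The vehicle, at 51.1 to 60.5 CPM, lay between the groups, so that peony libraries were below it and angelica libraries above it (log2 fold change -1.40 ± 0.12, adjusted p = 1.82e-11).

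P4HA1, a prolyl hydroxylase subunit needed for collagen folding, measured 148.1 and 153.8 CPM against 229.6 and 230.6 CPM (-0.61 ± 0.043, adjusted p = 9.56e-16). CA9, a membrane carbonic anhydrase that handles acid outside the cell, measured 21.5 and 21.3 CPM against 39.6 and 39.7 CPM, with a log2 fold change of -0.89 ± 0.085. NDRG1, a stress-responsive growth regulator, had a log2 fold change of -0.80. The regulators of fructose-2,6-bisphosphate PFKFB4 and PFKFB3 had -0.72 and -0.64, and the histone demethylase KDM3A -0.58. The other lower members were ADM, HILPDA, LOX, CA12 and P4HA2, with log2 fold changes from -0.41 to -0.20. VEGFA, the angiogenic growth factor and a textbook HIF target, went the other way: it measured 415.5 and 441.5 CPM after peony against 370.5 and 378.1 CPM after angelica (0.20 ± 0.050, adjusted p = 0.0112). No member was called higher, VEGFA included, without peony high replicate 2 or without either angelica library. ANGPTL4 (-0.06) and INSIG2 (-0.02) were not called.

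The mRNAs of the HIF alpha subunits were not called. HIF1A, which encodes the hypoxia-inducible alpha subunit, had a log2 fold change of 0.02 ± 0.064 (adjusted p = 0.908), and EPAS1, the homologue, one of -0.19 ± 0.062 (adjusted p = 0.0678). EGLN1, the main oxygen-dependent HIF prolyl hydroxylase and itself a HIF target, was at 50.1 and 49.2 CPM after peony and 69.3 and 67.7 CPM after angelica (-0.47 ± 0.055). Other HIF-linked genes chosen after their values were seen were also lower: the adenylate kinase AK4 by a log2 fold change of -1.01, the glycogen regulator PPP1R3C by -0.61, the glycogen synthase GYS1 by -0.42 and the collagen lysyl hydroxylase PLOD2 by -0.36.

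The mRNAs of glycolysis were lower along almost the whole pathway. All 20 listed genes passed 5 CPM; 19 were lower after peony, none was higher, and the median log2 fold change was -0.31. The exception was PFKM, the muscle-type phosphofructokinase, with 0.01 ± 0.060 (adjusted p = 0.953), while the liver and platelet forms PFKL (-0.21) and PFKP (-0.22) were called. At the entry of the pathway the glucose carriers SLC2A1 and SLC2A3 had -0.16 and -0.27, and the hexokinases HK2 and HK1 had -0.65 and -0.13. In the payoff steps GAPDH had -0.33, PGK1 -0.56, PGAM1 -0.40 and ENO1 -0.30. The mRNAs for lactate formation and export, LDHA and SLC16A3, had -0.46 and -0.47. The count was 13 without peony high replicate 1, 14 without either angelica library and 19 without peony high replicate 2, all on the lower side.

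PGK1, the first ATP-forming enzyme of the pathway, measured 671.5 and 682.7 CPM after peony and 990.5 and 1004 CPM after angelica. Vehicle stood at 925.7 to 950.6 CPM, so that peony lay below it by more than angelica lay above it (log2 fold change -0.56 ± 0.052, adjusted p = 7.36e-12). ENO2, the neuron-type enolase, measured 32.4 and 35.5 CPM against 59.7 and 63.5 CPM (-0.86 ± 0.063, adjusted p = 2.91e-15). PDK1, the mitochondrial kinase that inhibits pyruvate dehydrogenase, measured 19.6 and 19.0 CPM against 32.6 and 34.0 CPM (-0.78 ± 0.077, adjusted p = 4.47e-11). For all 3 the peony libraries were below every angelica and vehicle library. At the medium dose none of the 20 glycolysis genes was called and 1 hypoxia gene was, PFKFB3 (-0.32, adjusted p = 0.00477).

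**Figure D3:**
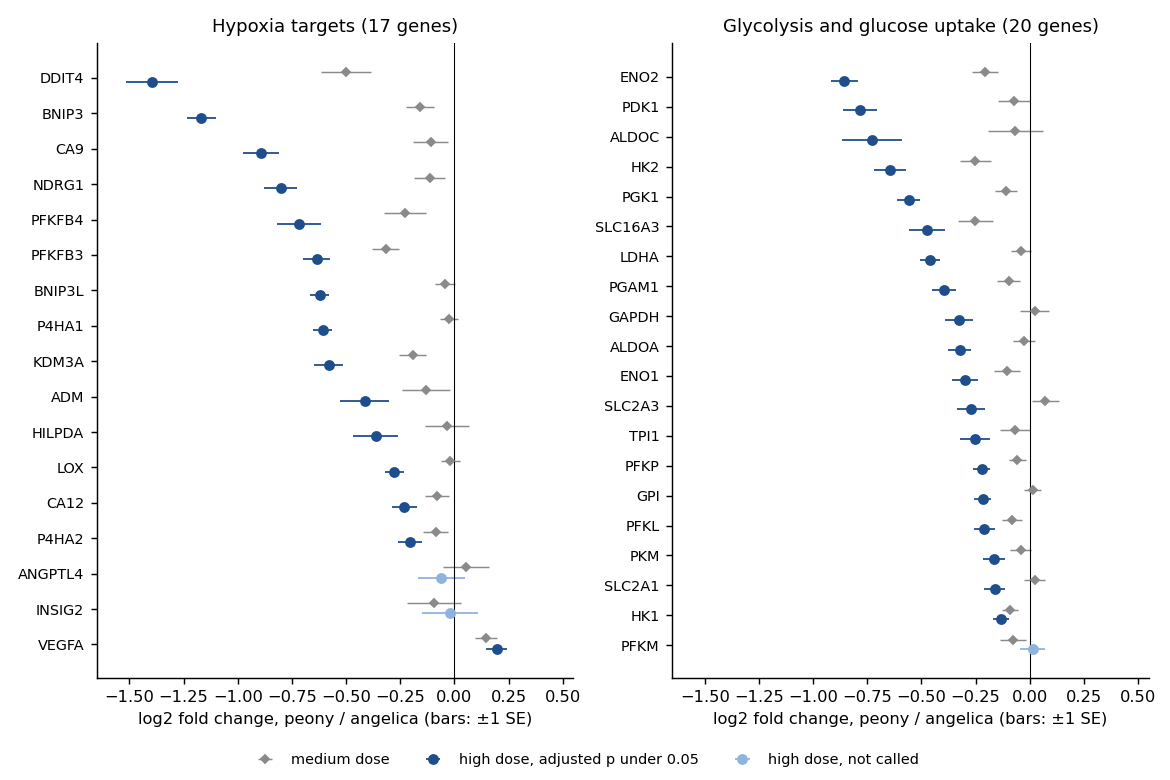
Log2 fold change of peony over angelica (points, bars of ±1 SE) for the 17 hypoxia targets and 20 glycolysis genes of mean CPM 5 or more, at the high dose (circles) and the medium dose (grey diamonds). At the high dose 14 and 19 genes lie below 0 and are called, while VEGFA lies above 0.

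HIF binds a short core, ACGTG or GCGTG, and the windows just upstream of the affected genes were read for it. In the RefSeq promoter table (GRCh38.p14) the 250 bases before the annotated start were searched on both strands for ACGTG, a motif chosen after the values were seen. It was present in 18 of the 29 called hypoxia and glycolysis genes with a window (62.1%), in 29.7% of the 9040 genes of mean CPM 5 or more with a window, and in 18.5% of all 35116 windows. The other form of the HIF core, GCGTG, was also in 62.1% of the 29, but in 54.7% of the 9040 genes, so the gap was small for that form. A gene counts once if any of its windows holds the motif. A match is a description of letters and not evidence of binding. Both lists are made of genes that HIF is known to raise, so a high share can come from the lists themselves. It says nothing about the extracts, and the genes not called were not searched as a set. The last 150 bases before the start are printed for 5 of these genes to show where the core lies, 5′ to 3′ on the gene's strand, with each match in capitals; a match on the other strand reads CACGT, and CACGTG holds both and is also the E-box of other factors. The windows are chromosome 10, 131981924 to 131982073 (BNIP3, minus strand), chromosome 9, 35673778 to 35673927 (CA9, plus), chromosome 12, 6914430 to 6914579 (ENO2, plus), chromosome 2, 172555940 to 172556089 (PDK1, plus) and chromosome 10, 72273774 to 72273923 (DDIT4, plus).
BNIP3: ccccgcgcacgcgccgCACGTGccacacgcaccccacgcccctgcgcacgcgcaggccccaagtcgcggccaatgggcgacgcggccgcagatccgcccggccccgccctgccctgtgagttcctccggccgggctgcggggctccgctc
CA9: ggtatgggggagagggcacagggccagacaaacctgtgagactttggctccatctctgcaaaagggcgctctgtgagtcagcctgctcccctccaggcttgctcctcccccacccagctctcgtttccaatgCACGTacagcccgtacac
ENO2: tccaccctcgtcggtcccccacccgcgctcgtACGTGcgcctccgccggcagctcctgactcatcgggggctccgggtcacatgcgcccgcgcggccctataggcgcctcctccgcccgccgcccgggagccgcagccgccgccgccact
PDK1: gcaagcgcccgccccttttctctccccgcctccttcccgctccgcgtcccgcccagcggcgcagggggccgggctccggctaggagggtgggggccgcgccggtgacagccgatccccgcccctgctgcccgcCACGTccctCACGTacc
DDIT4: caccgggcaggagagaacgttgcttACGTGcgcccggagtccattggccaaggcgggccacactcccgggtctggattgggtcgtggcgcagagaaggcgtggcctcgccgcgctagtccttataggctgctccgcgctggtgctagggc
The nearest match begins 18 bases before the start in CA9, 8 in PDK1, 118 in ENO2, 125 in DDIT4 and 133 in BNIP3, where the letters form the palindrome. PDK1 has 2 windows in the table and the first by coordinate that holds the motif is shown.

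The ID genes were lower after peony. Of 12 genes on the BMP and ID list 8 reached 5 CPM, and 4 of these were lower after peony, 1 was higher and 3 were not called (median log2 fold change -0.58). Over all genes 3.18% were lower and 1.76% higher at the high dose. The same 4 genes, ID1, ID2, ID3 and SMAD6, were also lower at the medium dose, where 0.0978% of all genes were lower.

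ID3 (chromosome 1, 23557918 to 23559794, minus strand) measured 63.68 and 81.15 CPM after peony and 189.3 and 233.0 CPM after angelica, with 192.7 to 202.9 CPM in vehicle. The angelica libraries lay on either side of the vehicle range and both peony libraries far below it. The log2 fold change was -1.54 ± 0.13 (adjusted p = 2.3e-11). ID2 (chromosome 2, 8678845 to 8684453, plus strand) measured 7.57 and 9.16 CPM against 20.3 and 25.2 CPM (-1.43 ± 0.11, adjusted p = 2.89e-14). ID1 (chromosome 20, 31605283 to 31606515, plus strand) measured 116.3 and 153.2 CPM against 307.7 and 333.4 CPM (-1.25 ± 0.11, adjusted p = 5.1e-11). Its vehicle libraries, at 251.2 to 252.5 CPM, lay between the groups. When only the 4 high-dose libraries were fitted, the list count was 1 higher and 2 lower, and the adjusted p was 0.0853 for ID3 and 0.0624 for ID1; over all alternatives it ran from 1.71e-127 to 0.0853 and from 5.11e-92 to 0.0624.

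SMAD6, the inhibitory SMAD that BMP signalling itself induces, measured 7.62 and 7.39 CPM against 12.8 and 15.0 CPM (-0.89 ± 0.10). GREM1, a secreted antagonist that binds BMP ligands, was the member on the higher side, at 27.9 and 27.3 CPM against 19.7 and 16.7 CPM (0.60 ± 0.10, adjusted p = 8.07e-05). BMP4, a ligand, had a log2 fold change of -0.08 and the inhibitory SMAD7, which is also on the YAP and TGF-beta list, of -0.28 (adjusted p = 0.229). Neither was called, nor was the pseudoreceptor BAMBI, at 11.7 and 13.9 CPM against 12.6 and 13.2 CPM. ATOH8, a helix-loop-helix factor named for its medium-dose fall, measured 9.99 and 9.92 CPM after peony and 19.8 and 19.3 CPM after angelica (-0.97 ± 0.10, adjusted p = 3.06e-10).

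The upstream window of SMAD6 (RefSeq, chromosome 15, 66702086 to 66702235, plus strand, GRCh38.p14) is printed because it holds the palindrome GTCTAGAC, a repeated SMAD box, which begins 12 bases before the start (capitals).
SMAD6: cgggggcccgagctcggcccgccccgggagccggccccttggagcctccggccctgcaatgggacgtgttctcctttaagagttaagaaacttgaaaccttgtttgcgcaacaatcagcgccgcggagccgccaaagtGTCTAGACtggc
This palindrome was in 1 of the 5 called BMP and ID genes. It was in 0.177% of the 9040 genes with a window and in 0.182% of all windows. ID1, ID2, ID3 and GREM1 do not hold these letters in the 250 bases searched. SMAD6 was picked for holding the match, so setting these shares side by side is not a test. The match is a description of letters and not evidence of binding, and it says nothing about the extracts.

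AhR targets were higher after peony. Of 8 listed genes 6 were tested and 4 reached 5 CPM, and all 4 were called higher, with a median log2 fold change of 0.74, where 1.76% of all genes were higher. The listed genes CYP1A1, CYP1A2, ALDH3A1 and LRAT were not tested or lay under 5 CPM, so the count does not speak of them. All 4 calls held when any of the 4 libraries was left out. CYP1B1, a cytochrome P450 that oxidises polycyclic hydrocarbons and oestrogens (chromosome 2, 38066973 to 38109902, minus strand), measured 220.1 and 234.7 CPM after peony and 123.4 and 121.0 CPM after angelica. Angelica lay just above the 114.0 to 119.5 CPM of vehicle and peony well above both (0.90 ± 0.069, adjusted p = 1.08e-14). TIPARP, an ADP-ribosyltransferase that feeds back on the receptor, measured 82.16 and 92.35 CPM against 46.5 and 49.3 CPM. Here angelica lay below the vehicle, 57.6 to 58.5 CPM (log2 fold change 0.87 ± 0.085, adjusted p = 5.64e-11). AHRR, the receptor's repressor, measured 67.1 and 66.4 CPM against 45.8 and 42.1 CPM (0.60 ± 0.11). The quinone reductase NQO1, which NRF2 also drives, measured 231.8 and 242.6 CPM against 163.3 and 164.3 CPM (0.53 ± 0.061, adjusted p = 4.29e-09).

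AHR itself had a log2 fold change of 0.06 ± 0.087 (adjusted p = 0.801). Genes that are often raised with this pathway and were chosen after their values were seen included the cytochrome CYP2S1 (0.69 ± 0.13), the efflux pump ABCG2 (0.71 ± 0.079) and the retinaldehyde dehydrogenase ALDH1A3 (0.65 ± 0.064), each higher after peony. The receptor's core, GCGTG, searched in the same 250 bases on both strands, was in AHRR and TIPARP but in 54.7% of all genes with a window too, and NQO1 does not hold it there; with 2 further letters, as TNGCGTG, it was in AHRR alone and in 8.33% of all genes. CYP1B1 was not matched in the table.

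**Figure D4:**
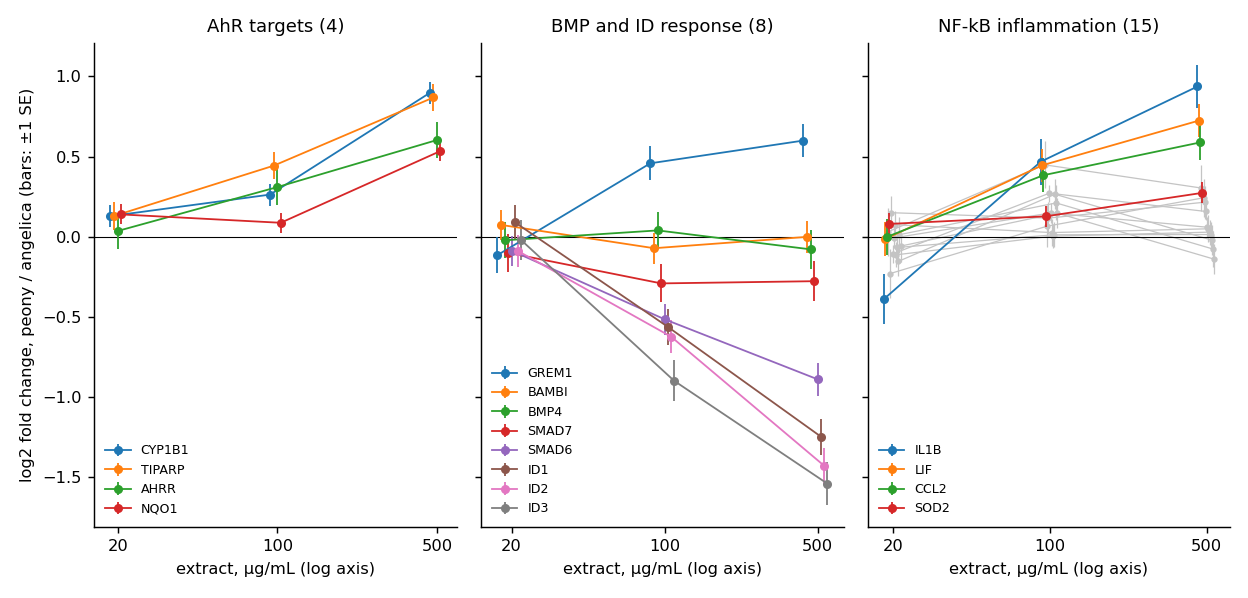
Log2 fold change of peony over angelica (bars of ±1 SE) at 20, 100 and 500 µg/mL (log axis) for the AhR targets, the BMP and ID genes and the NF-kB list; in the last, genes not called at the high dose are grey. All 4 AhR targets lie above 0 and ID1, ID2, ID3 and SMAD6 below -0.5 at 500 µg/mL, while no gene was called at 20 µg/mL.

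Among genes of iron handling FBXL5, which the naming rule picked and the iron list does not hold, was higher after peony. It encodes the iron-sensing subunit of the ubiquitin ligase that degrades the iron regulatory protein IRP2 (chromosome 4, 15604539 to 15681679, minus strand). Its level was 67.4 and 67.8 CPM after peony against 35.3 and 33.4 CPM after angelica and 32.2 to 35.2 CPM in vehicle. The angelica libraries overlapped the vehicle and the peony libraries lay far above both (log2 fold change 0.98 ± 0.063, adjusted p = 1.65e-17). The iron list itself had 11 genes of mean CPM 5 or more, of which 3 were higher, 1 was lower and 7 were not called (median 0.05). The shares over all genes were 1.76% higher and 3.18% lower. FTL, the ferritin light chain, measured 1513 and 1800 CPM against 1024 and 1066 CPM (0.66 ± 0.11, adjusted p = 3.31e-05).

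FTH1, the heavy chain, measured 1413 and 1786 CPM against 1292 and 1306 CPM (0.30 ± 0.070, adjusted p = 0.00507). The FTH1 peony replicates were further apart (1413 and 1786) than the lower of them was from angelica, and the call was lost without peony high replicate 2 (0.10, adjusted p = 0.416), without angelica high replicate 1 (0.104) or 2 (0.076), over a range of 2e-05 to 0.416. Ferritin genes have many processed pseudogenes, so their counts are uncertain. STEAP3, an endosomal ferrireductase, had 0.22 ± 0.051 (adjusted p = 0.00544), lost without peony high replicate 2 (0.0501) or angelica high replicate 1 (0.15). HMOX1, which opens haem and frees its iron, was the lower member at -0.35 ± 0.085 (adjusted p = 0.00863). The list count, with each library left out in turn, ran from 1 to 3 higher and 0 to 1 lower, and HMOX1 was not called without peony high replicate 1 or angelica high replicate 1. TFRC, the transferrin receptor, was at 1071 and 1029 CPM against 1144 and 1150 CPM and was not called (-0.13 ± 0.061, adjusted p = 0.278). The mitochondrial iron importers, chosen after their values were seen, went opposite ways: SLC25A37 had -0.55 and SLC25A28 0.38.

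Of the 23 NRF2 targets, which defend against oxidants and electrophiles, 6 were higher, 1 was lower and 16 were not called (median 0.12). Over all genes 1.76% were higher and 3.18% lower. Besides NQO1 and the 2 ferritins the higher ones were the ketone reductase AKR1C1 (0.44 ± 0.081), the iron-binding nuclear protein PIR (0.38 ± 0.098) and the cystine carrier SLC7A11 (0.28 ± 0.080). HMOX1 was the lower one. The count on the higher side was 3 without either angelica library and 5 without either peony library.

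TXNIP was lower after peony than after angelica although it was raised after both. It encodes an alpha-arrestin that removes glucose carriers from the surface and binds thioredoxin (chromosome 1, 145992435 to 145996600, minus strand), and the glucose sensor MondoA drives it. The level was 30.1 and 28.3 CPM after peony, 57.6 and 60.8 CPM after angelica and 10.3 to 11.0 CPM in vehicle. From the low to the high dose it rose by 1.65 on the log2 scale with peony (adjusted p = 4.93e-17) and by 2.78 with angelica (adjusted p = 1.22e-27). Between the extracts the log2 fold change was -1.02 ± 0.090 (adjusted p = 1.44e-12), and the difference between the 2 dose responses was -1.13 (adjusted p = 1.39e-06). ARRDC4, the other MondoA target listed, measured 9.89 and 9.57 CPM against 15.78 and 12.15 CPM. Its angelica replicates were unlike each other. The difference was -0.52 ± 0.11 (adjusted p = 0.0014), and it was -0.33 without angelica high replicate 1. The call was lost in 2 of 12 alternatives: that one and the fit of only the 4 high-dose libraries.

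Inflammatory mediators were higher after peony in part. Of 15 NF-kB genes of mean CPM 5 or more, 4 were higher, none was lower and 11 were not called (median 0.16). Over all genes 1.76% were higher and 3.18% lower. IL1B, the cytokine interleukin 1 beta, measured 8.68 and 10.7 CPM against 5.18 and 5.01 CPM, with 4.05 to 4.95 CPM in vehicle (0.94 ± 0.14, adjusted p = 2.11e-06). LIF, a cytokine of the interleukin 6 family, measured 76.3 and 80.6 CPM against 46.8 and 48.3 CPM (0.72 ± 0.10). CCL2, the monocyte chemokine, measured 31.3 and 35.3 CPM against 22.2 and 22.2 CPM (0.59 ± 0.11); its vehicle libraries, at 35.6 to 36.4 CPM, lay just above peony and well above angelica. SOD2, the mitochondrial superoxide dismutase, had 0.27 ± 0.066. CXCL8, a neutrophil chemokine, rose with dose after both extracts, by 1.32 with peony and 0.85 with angelica. It did not differ detectably between them at the high dose (0.24 ± 0.12, adjusted p = 0.29). Its vehicle libraries, at 9.91 to 12.64 CPM, lay above the low-dose libraries of both extracts, at 5.48 to 6.95 CPM. The angelica high libraries, at 11.92 and 12.62 CPM, lay within the vehicle range and the peony high libraries, at 14.96 and 14.15 CPM, above it. The cytokine TSLP, chosen after its values were seen, was higher by 0.82 ± 0.081.

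Glucocorticoid-responsive genes were split: of 11, 4 were higher, 1 was lower and 6 were not called (median 0.03). The shares over all genes were 1.76% higher and 3.18% lower. CRISPLD2, a secreted protein, measured 106.7 and 109.5 CPM after peony, 75.6 and 71.9 CPM after angelica and 94.7 to 104.2 CPM in vehicle (0.55 ± 0.068, adjusted p = 3.55e-08). It was the angelica libraries that lay outside the vehicle range by more, and CRISPLD2 fell from the low to the high dose of angelica by 0.37 (log2 fold change -0.37, adjusted p = 0.000829). KLF9, a circadian and steroid-responsive factor, had 0.33 ± 0.070 (adjusted p = 0.00182), and this call was lost without angelica high replicate 1 (0.105) or peony high replicate 2 (0.0667), over a range of 0.00022 to 0.105. ERRFI1, a brake on the epidermal growth factor receptor, was the lower member (-0.39 ± 0.073, adjusted p = 0.000335). SGK1 had 0.23 and GLUL, glutamine synthetase, 0.21; without peony high replicate 2 the count on the higher side was 1.

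Proliferation genes were lower after peony by small amounts that depended on single libraries. Of 23 S phase genes 5 were lower (RRM2, MCM6, MCM7, CDC6 and CDT1, log2 fold changes from -0.29 to -0.20), and of 23 mitosis genes 4 were (CCNA2, TPX2, PRC1 and NUSAP1, -0.28 to -0.18). None was higher, and the medians were -0.15 and -0.18. Over all genes 3.18% were lower. Without peony high replicate 1 none of the 46 was called; without peony high replicate 2 the counts were 9 and 10, without angelica high replicate 1 both were 1, and without replicate 2 they were 2 and 3.

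Among 19 YAP and TGF-beta targets 5 were lower and 1 was higher (median -0.16), where 3.18% and 1.76% of all genes were. The lower ones were ANKRD1, the smooth muscle actin ACTA2 (-0.39), the BMP-binding membrane protein CRIM1 (-0.31), the matrix protein TGFBI (-0.21) and the receptor kinase AXL (-0.17). Tissue factor F3 (0.31) was the higher one. The lower count was 8 without peony high replicate 2, 3 without peony high replicate 1 and 4 without either angelica library, and no gene was called higher without peony high replicate 2 or either angelica library. Of the 24 collagen and matrix genes 3 were lower (LOX, COL5A1 and COL4A1) and LUM was higher; the lower count was 1 without peony high replicate 1 or either angelica library, and no gene was called higher without peony high replicate 2 or either angelica library. Of 8 astroglial markers of mean CPM 5 or more, the aldolase ALDOC (-0.73 ± 0.14, adjusted p = 0.000341), which is also a glycolysis gene, and the hyaluronan receptor CD44 (-0.16 ± 0.046, adjusted p = 0.0379) were lower and GLUL was higher (adjusted p = 0.0213). ALDOC was called in all 12 alternatives, where its adjusted p was at most 0.0138; CD44 was lost in 7 of them (0.00978 to 0.388) and GLUL in 8 (0.0147 to 0.243), including those without angelica high replicate 1, without peony high replicate 1 and without angelica high replicate 2, and for GLUL also without peony high replicate 2. None of the 6 other neural markers and none of the 5 epithelial, blood and endothelial markers of mean CPM 5 or more was called by edgeR or DESeq2, and 4 of these 11 had an unadjusted p under 0.05.

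**Figure D5:**
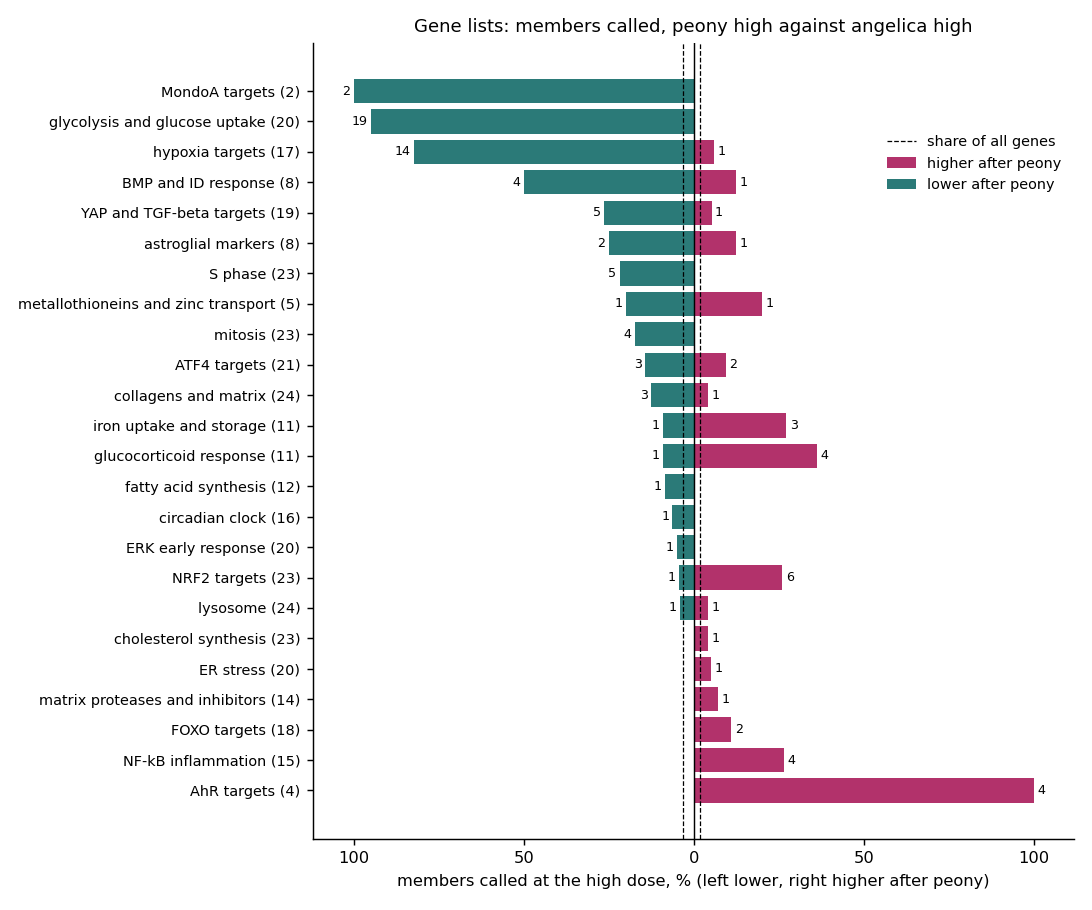
Share of each list's genes of mean CPM 5 or more (number in brackets) that was called at the high dose, lower after peony to the left and higher to the right, with counts at the bar ends; dashed lines give the shares over all 11242 genes (3.18% and 1.76%). Glycolysis (19 of 20) and hypoxia (14 of 17) stand out on the lower side and the AhR list (4 of 4) on the higher; lists with no call are not drawn.

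Several stress and housekeeping lists held no called gene. None was called by edgeR among 17 heat shock genes, 13 p53 targets, 21 interferon-responsive genes, 26 cytosolic ribosomal protein genes, 20 ribosome biogenesis genes, 13 genes of the mitochondrial genome and 22 nuclear genes of the respiratory chain; the medians of these lists lay between -0.095 and 0.0883. Of these 132 genes 13 had an unadjusted p under 0.05, and DESeq2 called 0. Of 20 ER stress genes only the chaperone HSPA5 was called, at 2754 and 2782 CPM after peony and 2315 and 2336 CPM after angelica (0.25 ± 0.065, adjusted p = 0.0127), and that call was lost when peony high replicate 1 or either angelica library was left out. Both extracts were below vehicle for HSPA5, whose vehicle libraries were at 3404 to 3640 CPM. From the low to the high dose 11 of the 20 ER stress genes fell with peony, where 4.69% of all genes fell, and 10 with angelica, where 0.827% did. Over all genes the angelica dose comparison gave between 37 and 794 calls with single libraries left out. Likewise the metallothioneins MT1E and MT1X, zinc-binding proteins, fell with dose after both extracts (MT1E -1.32 and -0.86, MT1X -1.05 and -0.61 for peony and angelica) and were not called between them. Other lists held 1 call each, where 4.94% of all genes were called in either direction, and nothing is read from such counts: the SREBP-regulated INSIG1 (0.40) of 23 genes in cholesterol synthesis, SCD (-0.22) of 12 in fatty acid synthesis and BHLHE41 (-0.37) of 16 clock genes. The fatty acid list had no call without peony high replicate 1 or either angelica library and 3 lower genes without peony high replicate 2. The autophagy receptor SQSTM1 was higher (0.30) and the cholesterol exporter NPC1 lower (-0.29) among 24 lysosome genes. Of 21 ATF4 targets 2 were higher (STC2 and SLC7A11) and 3 lower (VLDLR, MTHFD2 and PSAT1), of 18 FOXO targets 2 were higher (IGFBP1 and KLF9), of 20 early ERK response genes ETV5 was lower, of 14 matrix proteases and inhibitors SERPINB2 was higher, and of 5 metallothionein and zinc transport genes SLC39A10 was higher and SLC30A1 lower. These counts moved with single libraries, and over all genes 1.76% were higher and 3.18% lower. The ATF4 list had 2 higher and 7 lower genes without peony high replicate 2, 1 and 1 without peony high replicate 1 or angelica high replicate 2, and 1 and 2 without angelica high replicate 1. ETV5 was not called without peony high replicate 1 or either angelica library. The FOXO count was 1 higher without angelica high replicate 1, and 1 higher and 1 lower without peony high replicate 2. The matrix protease list had 2 higher without peony high replicate 1, and 2 higher and 3 lower without peony high replicate 2. On the metallothionein and zinc list no gene was called without angelica high replicate 1, and only 1 lower gene was without peony high replicate 1 or angelica high replicate 2.

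The difference grew with dose. At the low dose 0 of the 11242 genes were called by edgeR and 1 by DESeq2, with 693 at an unadjusted p under 0.05; leaving out angelica low replicate 1 gave 28 edgeR calls. At the medium dose 20 genes were called (0.178% of all), 9 higher and 11 lower. The higher ones were NPTX1, SERPINB2, KRTAP2-3, HAS3, TIPARP, FBXO32, ALDH1A3, INSIG1 and ICAM1, and the lower ones ID1, ID2, ID3, SMAD6, ATOH8, SAMD11, SELENOW, PFKFB3, FAM83G, DIRAS3 and RHOBTB3. Of these 20, ICAM1, an adhesion molecule, was the only gene not called at the high dose (0.16, adjusted p = 0.0921). SELENOW, a small selenoprotein, was the only lower one with a larger difference at the medium dose (-0.64) than at the high dose (-0.45). The medium-dose count was 7 to 11 with any of the 4 libraries left out: 9 without angelica medium replicate 1 or 2, 7 without peony medium replicate 1 and 11 without peony medium replicate 2. The medium-dose calls of SERPINB2 and KRTAP2-3 were lost in 2 and 4 of those fits. ID3 was not called at the medium dose when only the 12 libraries of the code set (adjusted p = 0.444) or only the 4 medium-dose libraries (0.434) were fitted, over a range of 4.6e-44 to 0.444.

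A direct test asked whether the difference at the high dose was unlike that at the low dose. It was for 137 genes (1.22% of all), of which 45 shifted upward for peony and 92 downward. The count was 271 without angelica low replicate 1 and 84 without angelica high replicate 2; it was 86 and 88 without peony low replicate 1 and angelica low replicate 2. On the hypoxia list 11 of 17 genes and on the glycolysis list 7 of 20 were among those that shifted downward, on the AhR list 3 of 4 shifted upward, and on the BMP and ID list 4 of 8 shifted downward and 1 upward. For BNIP3 the shift was -1.18 ± 0.092 (adjusted p = 2.6e-13), for FBXL5 0.96 ± 0.090 (adjusted p = 6.18e-11) and for CYP1B1 0.77 ± 0.097 (adjusted p = 2e-07).

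The change from the low to the high dose was also set side by side for the 2 extracts. These comparisons share their high-dose libraries with the one above. NPTX1 changed by 1.88 with peony and by -0.08 with angelica, THBD by 1.49 and 0.16, FBXL5 by 0.95 and -0.01, and CYP1B1 by 0.80 and 0.03. Similarly, ID3 changed by -1.54 with peony and -0.02 with angelica, BNIP3 by -1.10 and 0.07, and SAMD11 by -1.46 and -0.25. For each of these 7 genes the peony change was called and the angelica change was not, with adjusted p-values from 0.0728 to 0.978 for angelica. A change that was not called may be small and not absent. Other genes were called with both extracts, such as TXNIP (1.65 with peony and 2.78 with angelica) and IGFBP1 (1.51 and 0.75). CRISPLD2 (0.25 and -0.37) and FBXO32 (0.50 and -0.25) were called in opposite directions. Over all 11242 genes, 795 changed between the low and high dose of peony (7.07%), 268 higher (2.38%) and 527 lower (4.69%), and 159 between those of angelica (1.41%), 66 higher (0.587%) and 93 lower (0.827%). The peony count ran from 344 without peony high replicate 1 to 1337 without peony high replicate 2, with 365 and 389 without peony low replicates 1 and 2. The angelica count was 794 without angelica low replicate 1, 37 without angelica low replicate 2, and 46 and 38 without angelica high replicates 1 and 2.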

How the data were processed

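The deposited table held RSEM expected counts per gene, made by the authors from MGIseq 100 bp paired-end reads of a directional kit, per the labels' protocols. FastQC 0.11.9, Trim Galore 0.6.5, STAR 2.7.3a, RSEM 1.3.3 and the GRCh38 build are named in the submitters' processing notes; no source used here names the annotation release or the use of strand in counting. The table had 279 columns, of which 60 matched a sample and 219 were not used. Counts of all 60675 genes were rounded (9.48% of values were not whole within 1e-06). Of these genes 57030 had a symbol. The 3645 without one held 0.0341% of the counts and were kept under their Ensembl names. Library totals ran from 19.45 to 30.87 M, which limits the precision of low genes.

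All 60 libraries in 22 groups were fitted with edgeR 4.0.16 in R 4.3.3 (TMM scaling, filterByExpr with a minimum count of 10 and a minimum total of 15, robust quasi-likelihood F-test). Differences were contrasts of group means, the SE was the log2 fold change divided by the root of F, and p-values were adjusted by Benjamini-Hochberg over 17919 genes. The common biological coefficient of variation was 0.051. The fit was also run on simulated counts with the design of the high-dose comparison (17440 genes tested). It called 25 of 50 genes changed 1.25-fold, 48 of 50 changed 1.5-fold and 50 of 50 changed 2-fold, and 6 unchanged genes. Each simulated gene had the same spread in every library, with no outlying library like peony high replicate 1. These rates may therefore not hold for the real comparison. DESeq2 1.42.0 was an alternative, beside other scaling, filters, subsets of libraries, a replicate block and each library left out.

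The members and the 33 gene lists (609 entries, 608 found) were chosen with earlier results of these data known. Genes were named by rule: the 10 largest log2 fold changes in each direction among called genes of mean CPM 5 or more with an informative symbol and groups that do not overlap, up to 3 genes from each list with at least 1 in 3 tested genes called, and the 3 largest in each direction for the other comparisons. Other called genes of the lists, and those said to be so chosen, were named after their values were seen. Gene coordinates are from GENCODE 29.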

Additional observations from a re-analysis of the deposited data

Results flagged for a closer look

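The change from the low to the high dose differed between peony and angelica, by the test of that difference itself in edgeR, for 137 genes of mean CPM 5 or more. Those with the largest change of the difference in each direction are given on the log2 scale. NPTX1 stood at 1.954 (adjusted p = 6.18e-11), SECTM1 at 1.484 (adjusted p = 0.00113) and IL1B at 1.325 (adjusted p = 2.85e-05). On the lower side ID3 stood at -1.517 (adjusted p = 3.43e-07), DDIT4 at -1.463 (adjusted p = 8.32e-08) and KRT7-AS at -1.411 (adjusted p = 0.00314). The ID3 call was lost when only the 12 libraries of the code set (adjusted p = 0.0733) or only the 8 libraries of the 4 groups (0.0695) were fitted, over a range of 2.39e-63 to 0.0733. The KRT7-AS call was lost without peony high replicate 1 and angelica low replicate 2 together (0.102), over a range of 4.71e-08 to 0.102.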

How the results depend on the processing

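No named gene reversed direction: over 51 pairs of a gene and a comparison, 587 of 630 alternative values kept their side of the threshold and 43 lost it. The count of genes differing between the extracts at the high dose ran from 260 to 941 with single libraries left out, and was 284 without peony high replicate 1 and angelica low replicate 2 together, a setting chosen after seeing the data. With no filter on low counts the split was 145 higher and 409 lower, against 198 and 357. Without that filter the medium dose gave 67, the low dose 81, the difference between doses 281 and angelica high against low 287. With only the groups compared fitted, the count was 378 at the high dose, of which 325 were among the 555. In that setting it was 74 at the medium dose, 61 for the difference between doses and 6 for angelica. DESeq2 gave 1 at the low dose and 313 for angelica. The 12 libraries of the code set alone gave 383 at the high dose, of which 339 were among the 555, and 66 for angelica. With single libraries left out, the counts ran from 7 to 11 at the medium dose, 0 to 28 at the low dose, 84 to 271 for the difference between doses, 344 to 1337 for peony and 37 to 794 for angelica. The joint leave-out gave 1 at the low dose, 52 for the difference between doses, 368 for peony and 39 for angelica. With fewer libraries some counts fell and others rose, and the cause of these shifts was not tested.

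The labels do not tie equal replicate numbers to a shared culture, batch or day, so the numbers were not taken to pair the samples. Same-numbered deviations correlated at 0.00625 (high dose), 0.0993 (medium), 0.212 (low), -0.0228 (peony high and low) and -0.171 (angelica high and low), and over all 15 pairs of groups from -0.171 to 0.213. With the replicate block the high-dose count was 597 over all 60 libraries, against 555 without it. In the 12 libraries alone it was 448, against 383 without the block. For angelica high against low the block gave 199 over all 60 libraries, against 159 without it, and 113 in the 12 libraries, against 66 without it. With the numbers of angelica low crossed, also chosen after seeing the data, the block in the 12 libraries gave 66.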
